A study of Mus musculus with 8 samples.

Results

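The replication-dependent histone genes of the mouse were described in tumors of Lewis lung carcinoma that differ in their response to the VEGF inhibitor VEGF-Trap. The members are the protein-coding genes of GENCODE vM1 whose symbols begin with Hist1h, Hist2h, Hist3h or Hist4h, and there were 67 of them among 22367 protein-coding genes. They comprise 6 H1 linker histone genes, 19 H2A genes, 18 H2B genes, 11 H3 genes and 13 H4 genes. On chromosome 13, 54 of them lie in 1 cluster, and Hist1h2al lies 27.3 Mb away from it. Chromosome 3 holds 9 members, chromosome 11 holds Hist3h2ba and Hist3h2a, and chromosome 6 holds Hist4h4.

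Canonical histones package newly replicated DNA, and their genes are transcribed mainly in S phase of the cell cycle. An H2A-H2B dimer pair and an H3-H4 tetramer form the core of a nucleosome, and H1 binds the DNA that links nucleosomes. The genes have no or few introns, and their mRNAs end in a stem-loop that SLBP binds, in place of a poly(A) tail. NPAT, a target of cyclin E and its kinase, gathers at the clusters and drives their transcription. Of the marks measured here, H3K4me3 and H3K9ac are found at promoters of active genes, H3K27me3 is laid down by Polycomb complexes at repressed genes, and H3K36me3 follows elongating RNA polymerase through gene bodies.

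LLC is a lung carcinoma line that arose in C57BL/6 mice. LLC-NR is the line sensitive to VEGF-Trap, and LLC-R was derived by repeated selection in mice under continuous VEGF-Trap. Cells of each line were inoculated under the skin of female C57BL/6J mice, and the isografts were dissected once they had grown, so a library holds DNA of tumor cells and of host stroma, vessels and leukocytes together. Cross-linked chromatin was cut with micrococcal nuclease and precipitated with antibodies to the 4 marks. The 8 libraries are 1 for each mark in each line, and how many tumors were pooled for a library is not given in the sources used here. Without replicates the lines cannot be told apart from the libraries, so no p-values are given and differences are stated as values.

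Each deposited list gives positions of peaks with no height, and every peak is 147 bp wide, the length of DNA in a nucleosome. Lists held from 5660458 peaks for H3K4me3 in LLC-R to 9101721 peaks for H3K27me3 in LLC-R, and for H3K27me3 and H3K36me3 the LLC-R library had more peaks than the LLC-NR library. The measure used throughout is how many peak midpoints lie in a promoter, a window that opens 1 kb before the TSS and closes 0.5 kb after it. Windows of the same length at least 5 kb from any TSS held a mean of 3.19 peaks for H3K4me3 in LLC-NR and of 5.24 peaks for H3K27me3 in LLC-R, the lowest and the highest of the 8 libraries, so a peak alone does not mark an enriched nucleosome. Promoters of the proliferation markers Mki67, Pcna, Mcm2 and Top2a held from 4 to 8 H3K4me3 peaks in LLC-NR and 5 or 6 in LLC-R. The 14 leukocyte, endothelial and fibroblast marker promoters held from 2 to 7 H3K4me3 peaks in LLC-NR and from 1 to 7 in LLC-R, and the part of host cells in the histone gene values was not tested.

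The sequence of these genes decides what can be counted, since only reads that map to a single place entered the peaks. Many H2A and H2B genes stand head to head, and the DNA between their starts serves as the promoter of both. There were 13 such divergent pairs, 12 of them an H2A and an H2B gene, with starts 168 to 693 bp apart and a median of 241 bp. The sequences between the starts of 3 pairs are shown because they carry the results that follow: a pair with fewer H3K4me3 peaks in LLC-R, a pair of the testis, and a pair that exists in 2 copies. They are the plus strand of NCBIM37, the assembly also called mm9, and capitals mark CCAAT with its complement ATTGG, the TATA box TATAAA with its complement TTTATA, and the octamer ATTTGCAT with its complement ATGCAAAT. Of the testis pair the central 300 bases are given.
Hist1h2bf and Hist1h2ad, chr13:23666065-23666250: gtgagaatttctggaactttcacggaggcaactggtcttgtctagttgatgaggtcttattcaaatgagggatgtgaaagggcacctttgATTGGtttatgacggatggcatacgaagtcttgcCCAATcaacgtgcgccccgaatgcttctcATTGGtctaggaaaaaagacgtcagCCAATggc
Hist1h2ba and Hist1h2aa, chr13:24026028-24026327: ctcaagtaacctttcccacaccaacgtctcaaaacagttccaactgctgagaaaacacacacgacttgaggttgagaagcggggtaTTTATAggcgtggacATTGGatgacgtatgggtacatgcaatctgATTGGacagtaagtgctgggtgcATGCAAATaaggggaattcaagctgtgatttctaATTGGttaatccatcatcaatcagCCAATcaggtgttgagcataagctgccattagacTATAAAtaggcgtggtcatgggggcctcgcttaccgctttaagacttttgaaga
Hist1h2bq and Hist1h2ao, chr13:21902068-21902236: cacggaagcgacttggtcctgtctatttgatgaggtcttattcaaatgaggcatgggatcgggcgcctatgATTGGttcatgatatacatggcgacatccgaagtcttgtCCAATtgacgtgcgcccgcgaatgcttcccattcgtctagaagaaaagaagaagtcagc

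Promoters of the histone genes shared short sequence elements that the choice of members did not use. Within 250 bases before to 50 bases after the TSS, CCAAT was found on either strand in 57 of 67 histone promoters and in 37.7% of all promoters. All 6 H1, 19 H2A and 18 H2B promoters and 10 of 11 H3 promoters held it, against 4 of 13 H4 promoters. TATAAA was found in 38 of 67 histone promoters and in 13.4% of all promoters. ATTTGCAT, the octamer that POU factors bind, was found in 7 H2A and 8 H2B promoters and in none of the H1, H3 and H4 promoters, against 1.76% of all promoters. These are matches of letters in the sequence and not measured binding.

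At the other end of the genes, the letters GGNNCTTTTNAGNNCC, which fold into the stem-loop, were found within 150 bases of the stop codon in 61 of 67 members, and in 0.292% of the 21920 protein-coding genes with an annotated stop codon, members included. They began 22 to 59 bases past the stop codon, with a median of 31. Only 6 forms of the 16 letters occurred, and 39 genes had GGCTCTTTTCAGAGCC. Sites of an H3, an H4 and a testis gene are shown with these letters in capitals to show how little the 3' ends differ.
Hist1h3d: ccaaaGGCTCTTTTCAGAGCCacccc
Hist1h4k: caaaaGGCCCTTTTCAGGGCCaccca
Hist1h1t: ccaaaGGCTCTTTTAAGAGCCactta

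Near-identical copies took a large part of the histone promoters out of reach. With reads of 50 bases and up to 2 mismatches, a mean of 63.1% ± 24.9 (SD across promoters, n = 67) of the read starts in a histone promoter were unique in the genome, against 88.1% ± 25.1 (n = 22367) over all promoters and 95.8% ± 12.7 (n = 12045) over CpG-rich promoters. Of the 67 histone promoters, 61 had under 90% unique starts, against 23.6% of all promoters. Within gene bodies the mean was 42.7% ± 31.5 (n = 67). Coding sequences of the same length were alike, with a median identity over pairs of 96.4% among H2A genes, 97.1% among H2B genes, 97.6% among H3 genes and 93.9% among H4 genes.

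The 6 genes Hist1h2bq, Hist1h2ao, Hist1h4m, Hist1h4n, Hist1h2ap and Hist1h2br had 0 peaks in their promoters in each of the 8 libraries. A promoter with no peak in any library was found for 2.82% of all genes. These 6 genes lie in the arms of an inverted repeat, chr13:21893062-21904124 and chr13:21923556-21934618, of 11063 bp each, which differ at 21 positions and are 99.8% identical. The 169 bases shown between Hist1h2bq and Hist1h2ao are the reverse complement of chr13:21925444-21925612, between Hist1h2ap and Hist1h2br, and the start used for Hist1h2br lies 15 bases past them. Neither arm held a peak of any mark in any library. From 0 to 2.40% of the read starts in these promoters were unique, so their 0 is a limit of mapping and says nothing of the marks. The next lowest share was 40.5%, in the promoter of Hist1h2ad. On chromosome 3, a shorter inverted repeat with arms of 946 bp and 97.8% identity holds Hist2h2aa2, Hist2h2aa1 and Hist2h3c1, and their promoters had 47.5 to 51.8% unique starts.

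**Figure D1:**
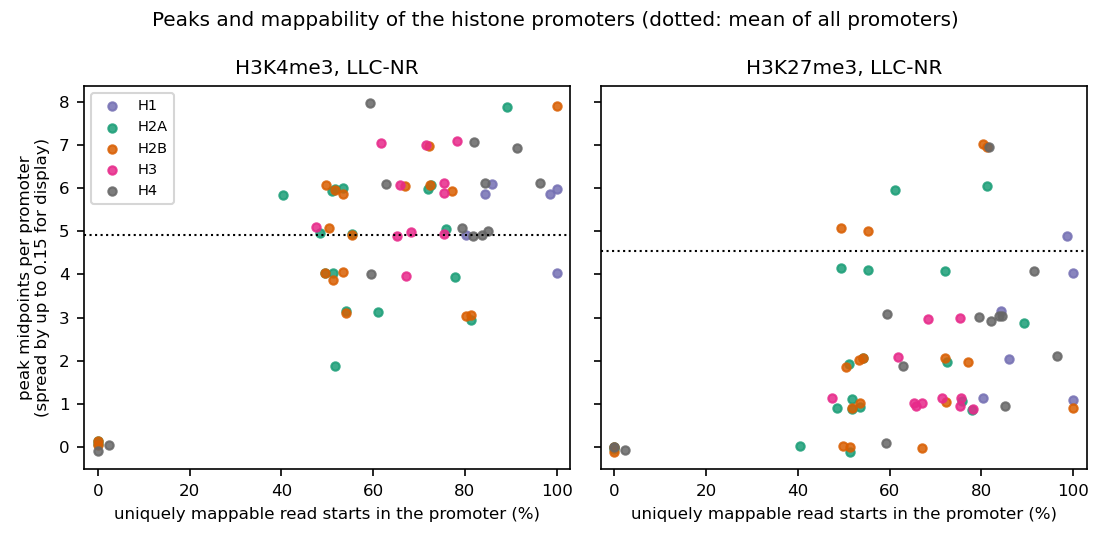
Each point is 1 of the 67 histone promoters, placed by its share of unique read starts in percent and by its number of H3K4me3 (left) or H3K27me3 (right) peaks in LLC-NR, with the histone class as colour and the mean of all promoters as a dotted line. The 6 promoters near 0% hold no peak, and among the others H3K4me3 lies on both sides of the dotted line while H3K27me3 lies mostly below it.

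The first question was how the marks of the histone promoters compared with those of other promoters in the same library. H3K4me3 and H3K9ac were near the mean of all promoters, while H3K27me3 and H3K36me3 were sparse, most of all in LLC-NR. However, 65 of the 67 histone promoters were CpG-rich. CpG-rich promoters, which have more unique read starts, held more H3K4me3 peaks than the histone promoters in both lines. H3K4me3 had a mean of 4.84 ± 2.0 peaks (SD across promoters, n = 67) in LLC-NR and 3.97 ± 1.85 in LLC-R, while all promoters averaged 4.91 ± 2.06 and 4.6 ± 1.9. H3K9ac had 4.88 ± 1.88 and 4.31 ± 1.80, against 5.51 ± 1.78 and 4.96 ± 1.69. H3K27me3 had 2.09 ± 1.87 in LLC-NR and 3.49 ± 1.85 in LLC-R, against 4.55 ± 1.86 and 5.45 ± 1.71. H3K36me3 had 1.48 ± 1.54 and 3.51 ± 1.74, against 3.2 ± 1.61 and 4.96 ± 1.65. The means over 67 promoters include the 6 duplicated ones, whose 0 is a limit of mapping.

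On the log2 scale, the H3K27me3 mean of the histone promoters differed from that of all promoters by -1.12 (95% counting interval -1.37 to -0.89) in LLC-NR and by -0.64 (-0.83 to -0.46) in LLC-R. For H3K36me3 the differences were -1.11 (-1.41 to -0.83) and -0.50 (-0.69 to -0.32). For H3K4me3 they were -0.02 (-0.18 to 0.14) and -0.21 (-0.39 to -0.04), and for H3K9ac -0.17 (-0.33 to -0.02) and -0.20 (-0.37 to -0.04). Intervals are exact Poisson intervals of the summed peaks. They cover counting error only and are too narrow, since neighbouring windows share peaks: the 324 H3K4me3 peaks summed over the promoters in LLC-NR were 258 distinct peaks. In LLC-NR, 45 of 67 histone promoters held at most 2 H3K27me3 peaks, against 13.6% of all promoters, and in LLC-R 16 of 67 did, against 6.37%. These counts include the 6 duplicated promoters that reads could not reach. Among the 61 histone promoters with a peak in any library, 39 did in LLC-NR and 10 in LLC-R.

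**Figure D2:**
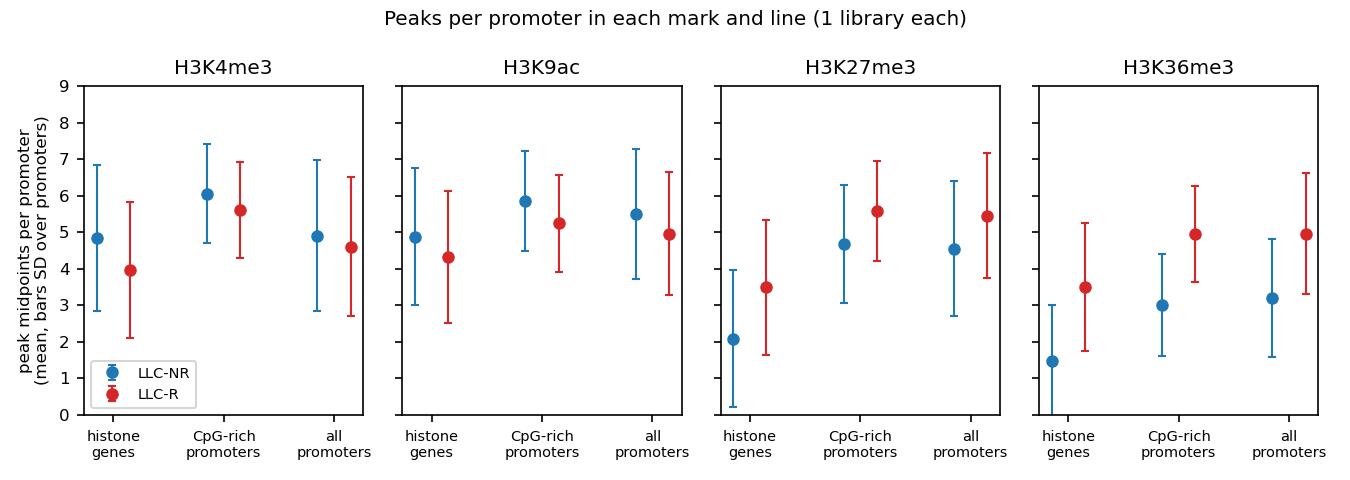
Points are the mean number of peaks per promoter in LLC-NR (blue) and LLC-R (red) for each mark, with bars of 1 SD across promoters, for 67 histone genes, 12045 CpG-rich promoters and 22367 promoters in all. The histone genes lie lowest for H3K27me3 and H3K36me3 in both lines, and nearer to the other sets for H3K4me3 and H3K9ac.

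Promoters of like mappability gave a check on these values. In the range of 40 to 90% unique read starts there were 55 histone promoters and 3663 promoters in all. The sets were not matched for CpG content. These 55 were all CpG-rich, while only 1297 CpG-rich promoters had under 90% unique starts, so most of the 3663 were not CpG-rich. The part of CpG content in the differences of this range was not tested. H3K27me3 in LLC-NR had a mean of 2.24 ± 1.86 in these histone promoters and 4.21 ± 1.60 in all promoters of the range, and 36 of the 55 held at most 2 peaks, against 14.8%. H3K36me3 in LLC-NR had 1.4 ± 1.31 against 3.15 ± 1.44. H3K4me3 was on the other side, with 5.22 ± 1.33 against 4.02 ± 1.83 in LLC-NR and 4.24 ± 1.39 against 3.79 ± 1.67 in LLC-R. H3K9ac was level, with 5.24 ± 1.07 against 5.19 ± 1.39 in LLC-NR. The low number of H3K27me3 and H3K36me3 peaks was thus also seen within this range, while H3K4me3 moved above all promoters in both lines and the direction of H3K9ac in LLC-NR was not kept. In the 6 histone promoters with at least 90% unique starts, Hist1h1a, Hist1h1b, Hist1h1t, Hist1h2be, Hist2h4 and Hist4h4, the H3K36me3 mean was not low. It was 3.67 ± 2.07 and 5.17 ± 0.753 in the LLC-NR and LLC-R libraries. Their LLC-NR counts were uneven, in the same order 2, 2, 7, 4, 5 and 2. The 7 belongs to a testis gene. The 4 belongs to Hist1h2be, whose annotated start lies 35168 bp from its start codon, where the count was 2. H3K27me3 in the same 6 was 2.83 ± 1.72 and 5.0 ± 1.26, a log2 difference from all promoters of -0.68 and -0.12.

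Around the TSS, the number of peaks followed the mappable sequence in part. Over the 61 histone genes with a peak, the share of unique read starts was 93.9% in the 100 bp before the TSS and 18.6% from 200 to 300 bp after it, inside the coding sequence. From the TSS to 200 bp downstream, H3K4me3 in LLC-NR had 39.3 peaks per 100 bp and 100 histone genes, against 36.6 for all promoters. CpG-rich promoters had 46.1. In the same 200 bp, where both marks face the same copies, H3K27me3 in LLC-NR had 9.02 peaks against 33.1 for all promoters. In the 200 bp upstream of the TSS, where read starts were mostly unique, H3K27me3 had 10.7 against 28.4 and H3K36me3 had 6.56 against 16.9. H3K4me3 had 22.1 against 31.4 there, and in LLC-R 17.2 against 28.9, so H3K4me3 peaks in these 200 bp were fewer in the histone genes in both lines. Farther upstream they were more than over all promoters. From 500 to 200 bp before the TSS the values were 38.3 against 32.9 in LLC-NR and 33.9 against 30.2 in LLC-R. From 1000 to 500 bp they were 38.4 against 31.4 and 32.5 against 29.1. CpG-rich promoters had 40.4 in LLC-NR and 36.4 in LLC-R from 500 to 200 bp, and 38.2 and 34.7 from 1000 to 500 bp. Against these, H3K4me3 of the histone genes was level or lower.

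**Figure D3:**
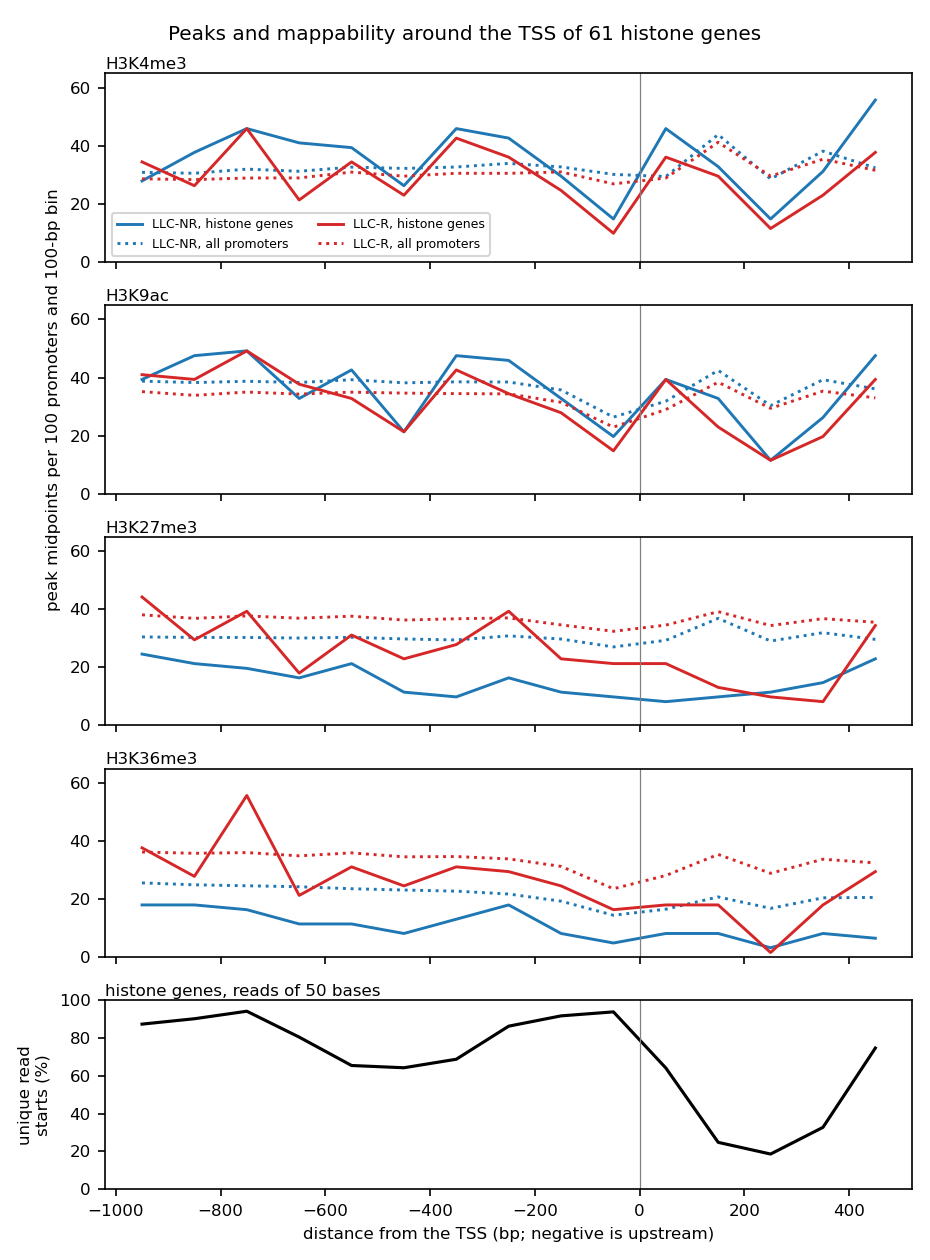
The upper panels plot peak midpoints per 100 promoters in each 100-bp bin against the distance from the TSS in bp, for the 61 histone genes with a peak (solid) and all promoters (dotted) in LLC-NR (blue) and LLC-R (red), and the lowest panel plots the percent of unique read starts in the histone genes. H3K4me3 and H3K9ac of the histone genes dip before the TSS and again at 200 to 300 bp, where unique starts are at 18.6%, while H3K27me3 in LLC-NR lies below the dotted line in all bins.

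Among the linker histone genes, H3K4me3 was even apart from Hist1h1t. Their promoters had a mean of 91.5% unique starts, and 3 of the 6 had under 90%. Hist1h1a held 6 H3K4me3 peaks in both lines, and Hist1h1b also held 6 in both. Hist1h1c had 6 in LLC-NR against 7 in LLC-R, Hist1h1d held 5 and 4, and Hist1h1e held 6 and 5. H3K27me3 was less even: Hist1h1a held 1 peak in LLC-NR against 5 in LLC-R, Hist1h1d held 1 and 4, while Hist1h1b held 5 in both and Hist1h1e held 2 in both. H3K9ac was high in the class, with a mean of 6.67 ± 1.03 (n = 6) in LLC-NR and 5.67 ± 1.21 in LLC-R. Hist1h1t, the linker histone of spermatocytes, stood apart with 7 and 6 H3K36me3 peaks and 4 and 7 H3K27me3 peaks, the most H3K36me3 of any member in LLC-NR. It held 4 and 3 H3K4me3 peaks, the fewest of the class in both lines.

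Among the H2A and H2B genes, at least 4 H3K27me3 peaks in LLC-NR were found at the testis genes Hist1h2aa and Hist1h2ba, at Hist3h2ba, Hist3h2a and Hist1h2al, and at the 4 H2A and H2B genes of a small block described further on. Hist1h2aa and Hist1h2ba, which encode the H2A and H2B variants of male germ cells, share the second sequence shown above and held 6 and 7 H3K27me3 peaks, in LLC-NR as in LLC-R. For H3K4me3 they held 3 peaks each in LLC-NR, against 6 and 5 in LLC-R. Over all 19 H2A genes the mean of H3K27me3 was 2.05 ± 1.93 in LLC-NR, and over all 18 H2B genes it was 2.11 ± 2.32. Without the 3 testis genes, the mean over the remaining 64 members was 1.92 ± 1.72 in LLC-NR, against 3.34 ± 1.75 in LLC-R. Hist3h2ba, on chromosome 11, held 7 H3K27me3 peaks in both lines and 3 and 7 H3K4me3 peaks, whereas Hist3h2a beside it held 4 and 5 H3K27me3 peaks and 6 and 5 H3K4me3 peaks. Hist1h2al, the member that lies alone on chromosome 13, held 6 H3K27me3 and 3 H3K4me3 peaks in both lines.

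Genes for H3 were alike in H3K27me3. In LLC-NR all 11 held between 1 and 3 H3K27me3 peaks, with a mean of 1.45 ± 0.820, and between 4 and 7 H3K4me3 peaks, with a mean of 5.73 ± 1.01. In LLC-R they held between 2 and 4 H3K27me3 peaks, with a mean of 3.27 ± 0.647, and between 3 and 6 H3K4me3 peaks, with a mean of 4.0 ± 1.0. Hist1h3d had 7 H3K4me3 peaks in LLC-NR against 3 in LLC-R, and Hist1h3b and Hist1h3f held 7 and 4. Hist2h3b, on chromosome 3, was the H3 gene with more H3K4me3 in LLC-R, with 5 and 6 peaks.

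Among the H4 genes, H3K4me3 ranged from the 0 of the duplicated Hist1h4m and Hist1h4n to 8 peaks at Hist1h4k in LLC-NR. Hist1h4k held 5 H3K4me3 peaks in LLC-R and 0 and 3 H3K27me3 peaks, with 59.3% of its read starts unique. Hist1h4i was the H4 gene with the most H3K27me3 in LLC-NR, 7 peaks, and it held 6 in LLC-R. Hist1h4b held 3 and 7 H3K27me3 peaks. Hist4h4, the single member on chromosome 6, held 7 and 5 H3K4me3 peaks and 4 and 3 H3K27me3 peaks. Hist2h4 held 6 H3K4me3 peaks in both lines and 6 and 8 H3K9ac peaks.

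On chromosome 3, H3K4me3 ranged from 2 peaks at Hist2h2aa2, in the repeat, to 8 at Hist2h2ab in LLC-NR, and from 3 to 7 in LLC-R. Hist2h2aa1 and Hist2h3c1 have starts 16 bp apart in the annotation, so their counts were the same in all libraries, 5 and 3 for H3K4me3. Hist2h2ac and Hist2h2be, a divergent pair, had 6 and 7 H3K4me3 peaks in LLC-NR, against 4 and 5 in LLC-R. Hist2h2bb held 6 and 5. H3K27me3 was higher in LLC-R at each of the 9 genes, with means of 1.78 ± 0.833 and 4.0 ± 0.866, while 58.5% of all promoters had more in LLC-R.

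**Figure D4:**
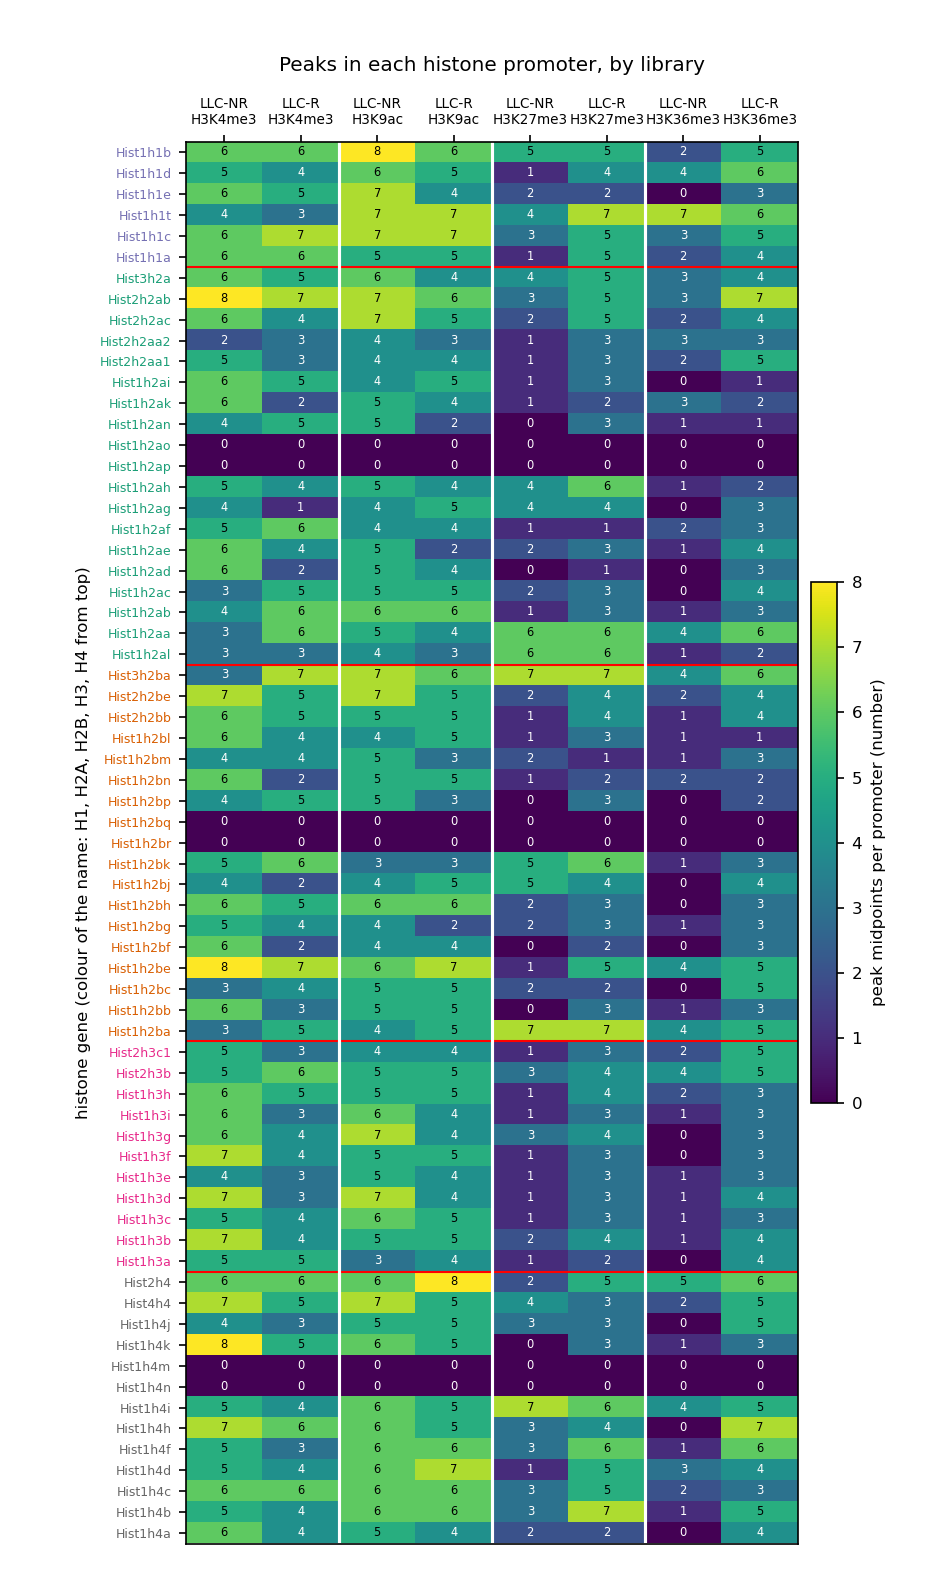
Rows are the 67 histone genes by class (H1, H2A, H2B, H3 and H4 from the top, divided by red lines) and columns are the 8 libraries, with the number of peak midpoints in the promoter printed and coloured from 0 to 8. The 6 duplicated genes are dark throughout, and the H3 genes are dark for H3K27me3 and H3K36me3 in LLC-NR.

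The second question was how the promoters differed between LLC-NR and LLC-R, the sensitive and the resistant line. H3K4me3 had fewer peaks in LLC-R in 41 histone promoters, the same in 13 and more in 13, while 43.5% of all promoters had fewer and 25.6% more. The 6 histone promoters without a peak count among those with the same number. With a difference of at least 2 peaks, 22 histone promoters had fewer, against 18.4% of all promoters, and 5 had more, against 9%. H3K9ac had fewer peaks in 29 and more in 9, against 50.6% and 19.2% of all promoters. H3K27me3 had more peaks in LLC-R in 46 and fewer in 4, against 58.5% and 15% of all promoters, and at least 2 more in 33, against 31.9%. H3K36me3 had more in 55 and fewer in 2, against 78% and 5.78%.

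In each class more promoters had fewer than had more H3K4me3 peaks in LLC-R, and differences between classes were not tested. Among the H3 genes 9 of 11 had fewer H3K4me3 peaks in LLC-R, and among the H4 genes 9 of 13 had fewer and 0 had more. Among the H1 genes 3 of 6 had fewer and 1 had more. Among the H2A genes 10 of 19 had fewer and 6 more, and among the H2B genes 10 of 18 had fewer and 5 more. Of the members with the largest differences, Hist1h2ak and Hist1h2bn, a divergent pair, each held 6 peaks in LLC-NR against 2 in LLC-R. Hist1h2bf and Hist1h2ad, whose shared sequence is shown first above, also held 6 and 2 each. The largest differences the other way were at Hist3h2ba, with 3 and 7, and at Hist1h2aa, with 3 and 6. The 2 genes of a pair share most of their window and are not independent.

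For H3K27me3 and H3K36me3, all 11 H3 genes had more peaks in LLC-R, against 58.5% and 78% of all promoters. Hist1h1a, Hist1h2be, Hist1h4b and Hist1h4d each had 4 more H3K27me3 peaks, and Hist1h4h went from 0 H3K36me3 peaks in LLC-NR to 7 in LLC-R. Both LLC-R libraries had more peaks genome-wide, so the ratio of LLC-R to LLC-NR in the histone promoters was set against the same ratio over all promoters. On the log2 scale it was -0.19 (-0.43 to 0.05) for H3K4me3, -0.03 (-0.26 to 0.20) for H3K9ac, 0.48 (0.17 to 0.79) for H3K27me3 and 0.61 (0.27 to 0.97) for H3K36me3, with exact binomial intervals for counting error only. The 4 proliferation markers gave 0.45 (-0.71 to 1.68) for H3K27me3 and 0.44 (-0.71 to 1.69) for H3K36me3, with more peaks in LLC-R at all 4. For H3K4me3 they gave -0.04. The 6 leukocyte markers gave -0.24 (-1.10 to 0.60) for H3K4me3, with fewer peaks at 4, and -0.05 for H3K27me3. For H3K4me3 and H3K27me3, fibroblast markers gave 0.09 and -0.20, and endothelial markers -0.14 and -0.26. The epithelial markers Krt8, Krt18, Epcam and Cdh1 gave 0.09 and 0.06. The part of dividing or host cells in these values was not tested.

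The last 2 values depended on the comparison. Over all promoters with the same number of LLC-NR peaks as each histone promoter, LLC-R held a mean of 3.74 H3K27me3 peaks, against 3.49 in the histone promoters, and 3.57 H3K36me3 peaks, against 3.51, so the log2 values became -0.10 and -0.03, with the opposite sign. Scaled by the uniquely mapped reads of the libraries in place of all promoters, the values were -0.36 for H3K27me3 and 0.033 for H3K36me3. The sign of H3K27me3 was thus turned by both, and that of H3K36me3 by the first. In the range of 40 to 90% unique starts, H3K27me3 in the histone promoters averaged 2.24 in LLC-NR and 3.71 in LLC-R. All promoters of the range averaged 4.21 and 5.27. H3K36me3 averaged 1.4 and 3.71 in these histone promoters, against 3.15 and 4.87. In this range both marks were thus higher in LLC-R by a larger factor in the histone promoters, as in the main comparison. For H3K4me3, promoters with the same LLC-NR number gave 4.53 peaks, against 3.97 in the histone promoters, and scaling by uniquely mapped reads gave a log2 value of -0.012, so the lower number in LLC-R was close to the ratio of the reads. Promoters with fewer H3K4me3 and at the same time more H3K27me3 peaks in LLC-R numbered 34 of 67 histone promoters and 26.3% of all promoters.

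A state was given to each promoter by whether H3K4me3 or H3K9ac, and H3K27me3, reached the mean of all promoters of the library. A promoter with an active mark and little H3K27me3 was called active, with both bivalent, with H3K27me3 alone repressive and with neither none. In LLC-NR 44 histone promoters were active, 4 bivalent, 4 repressive and 15 none, against 29.8%, 48.3%, 8.2% and 13.6% of all promoters. In LLC-R 37 were active, 8 bivalent, 2 repressive and 20 none, against 28.4%, 52.9%, 5.73% and 12.9%. From LLC-NR to LLC-R, 29 promoters were active in both, 11 went from active to none and 6 from none to active, against 15.8%, 1.33% and 1.39% of all promoters. The 6 duplicated promoters count as none in both. Counts are whole numbers and each library has its own mean, so a state can change without a gained or lost peak of the mark. Hist1h4j went from none to active with 4 and 3 H3K4me3 peaks and 5 H3K9ac peaks in both lines. Hist1h1b went from bivalent to active with 5 H3K27me3 peaks in both.

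Positions of peaks were compared as well, a share that also depends on how many peaks the other library holds. Of the 258 H3K4me3 peaks of LLC-NR in histone promoters, 34.1% (exact 95% interval 28.3 to 40.2%) had an LLC-R midpoint within 20 bp, against 36.7% over all promoters. For H3K9ac the share was 45.4% (39.3 to 51.5%), against 39.9%. For H3K27me3 it was 31.1% (22.9 to 40.2%), against 35.6%, and for H3K36me3 27.3% (18.3 to 37.8%), against 33.7%. Seen from LLC-R, 19.4% (14.0 to 25.7%) of 191 H3K27me3 peaks and 12.5% (8.18 to 18.0%) of 192 H3K36me3 peaks had an LLC-NR midpoint within 20 bp, against 29.7% and 21.8%.

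Gene bodies are mostly short and overlap the promoter window. H3K4me3 had a mean of 3.24 ± 1.64 peaks per kb over the 67 histone gene bodies in LLC-NR and 2.65 ± 1.64 in LLC-R, against 2.58 ± 1.06 and 2.55 ± 1.01 over all gene bodies. H3K36me3 had 0.783 ± 1.21 and 1.85 ± 1.72, against 2.78 ± 1.13 and 3.6 ± 1.1, and 45 histone gene bodies held no H3K36me3 peak in LLC-NR, against 6.13% of all gene bodies and 29.0% of those under 2 kb. Of the 61 histone genes with a promoter peak, 39 had a gene body without an H3K36me3 peak in LLC-NR. These counts were not matched for length or mappability, and a short or poorly mappable body has less room for a peak. Histone gene bodies had a mean of 42.7% unique starts. No unique start was found in 9 of them, among which Hist1h4k, Hist2h2aa1 and Hist2h2aa2 belong to the 39. The part of these limits was not tested. With peaks and lengths summed over genes the gap was smaller, 2.06 against 2.90 H3K36me3 peaks per kb in LLC-NR and 2.82 against 3.71 in LLC-R. Of the 228 H3K36me3 peaks summed in LLC-NR, 121 lay in the annotated body of Hist1h2be, which is 37.4 kb long. H3K27me3 had 1.39 ± 1.47 and 1.69 ± 1.60, against 2.72 ± 1.14 and 3.55 ± 1.08. H3K9ac had 2.79 ± 1.71 and 2.48 ± 1.62, against 3.62 ± 1.16 and 3.32 ± 1.08. All gene bodies under 2 kb had 1.76 ± 1.5 H3K36me3 peaks per kb in LLC-NR (n = 3293).

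Across the main cluster, which runs from chr13:21808012 to 24026331, the histone genes form 4 blocks of 18, 5, 29 and 2 genes. The gap of 1488 kb between the second and the third block holds the 32 genes with Vmn1r symbols that start in the cluster, which encode vomeronasal receptors. In 5-kb tiles, the 33 tiles with a histone TSS averaged 16.4 ± 5.23 and 13.5 ± 4.64 H3K4me3 peaks in the LLC-NR and LLC-R libraries, against 9.6 ± 5.89 and 9.17 ± 5.16 in the 412 other tiles. For H3K27me3 they held 8.67 ± 4.85 and 14.3 ± 4.67, against 12.0 ± 6.67 and 14.9 ± 6.86. Histone tiles had 80.1% unique read starts and the other tiles 63.6%, so the tiles were also compared near each block and with at least 50% unique starts.

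H3K27me3 in LLC-NR was low in the first and the third block and not in the second and the fourth. In the first block, 8 histone tiles held a mean of 7.75 H3K27me3 peaks, against 12.8 in 9 other tiles of the block and 19.1 in 17 tiles within 100 kb of it. In the third block, 19 histone tiles held 7.89, against 14.9 in 26 other tiles of the block and 18.6 in 40 tiles within 100 kb. In the second block, 3 histone tiles held 18.7, against 17.7 in 26 tiles nearby, and in the fourth the single histone tile held 18 peaks, against 19.6 in 20 tiles. H3K4me3 in LLC-NR was 18.0 in the histone tiles of the first block, against 15.6 nearby, and 17.7 in those of the third, against 15.8.

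Promoters showed the same division. The 5 promoters of the second block, Hist1h2ah, Hist1h2bk, Hist1h4i, Hist1h2ag and Hist1h2bj, held 4, 5, 7, 4 and 5 H3K27me3 peaks in LLC-NR, with a mean of 5.0 ± 1.22. Unique read starts in these 5 ranged from 49.5% at Hist1h2ag to 81.7% at Hist1h4i. The 29 promoters of the third block held from 0 to 4, with a mean of 1.69 ± 1.04, and the 12 promoters with a peak of the first block held from 0 to 5, with a mean of 1.33 ± 1.44. H3K4me3 in LLC-NR was 4.6 ± 0.548 in the second block, 5.52 ± 1.18 in the third and 5.5 ± 1.24 in the first. In LLC-R, H3K27me3 was 5.2 ± 1.1 in the second block, 3.55 ± 1.57 in the third and 2.92 ± 0.996 in the first. The block of 5 thus differed from the larger blocks in H3K27me3 by more than the spread among its promoters, in single libraries and with promoters that share windows.

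**Figure D5:**
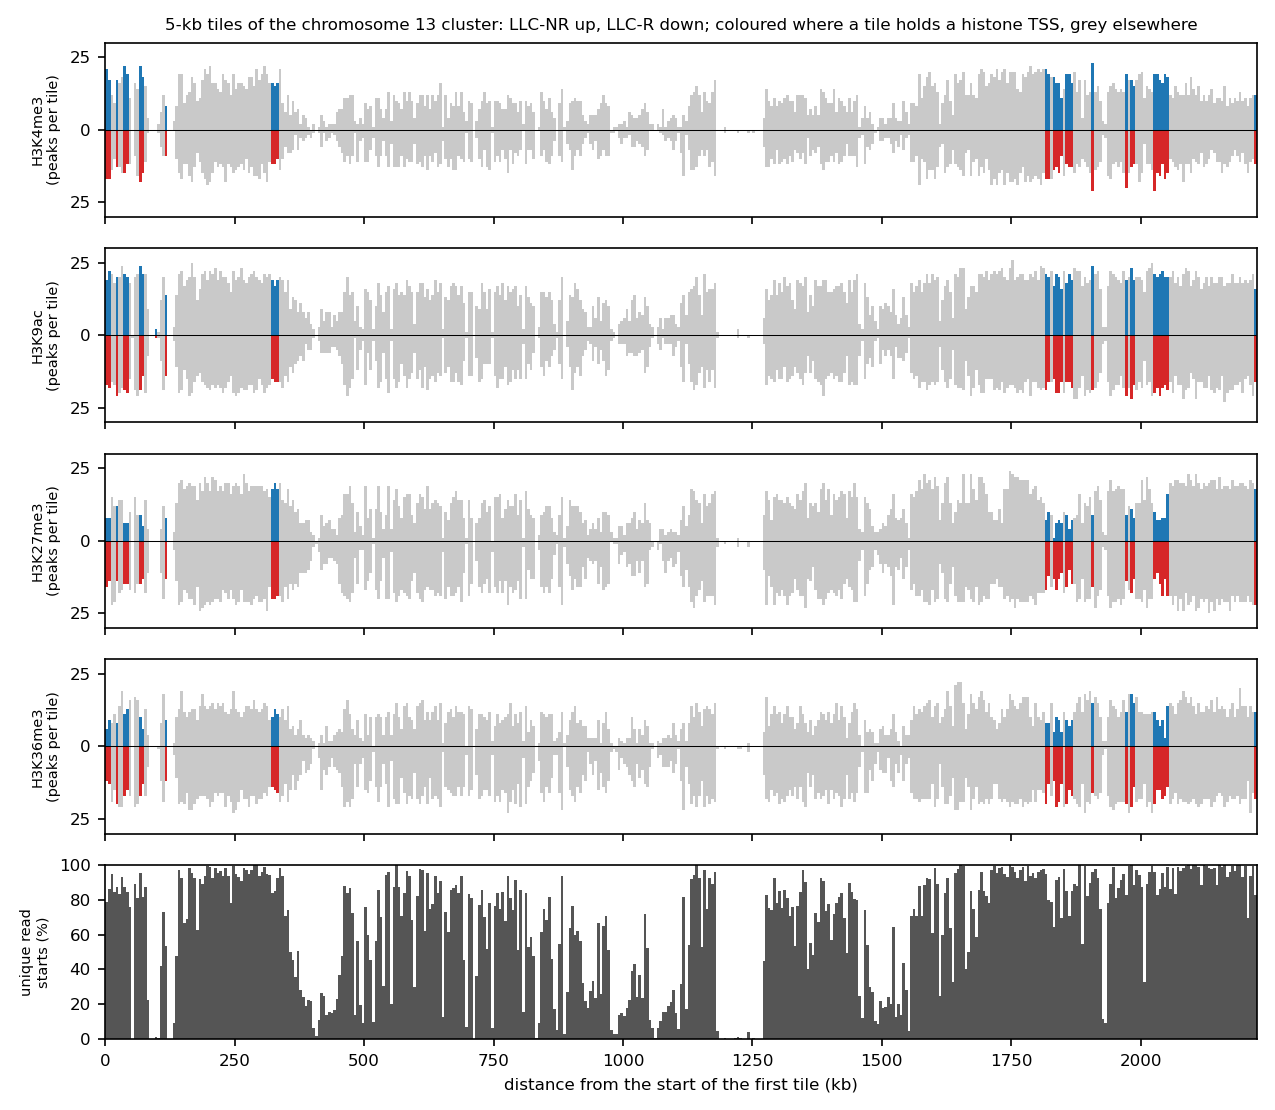
The upper 4 panels plot peaks per 5-kb tile against the distance in kb from the start of the first tile, upward for LLC-NR and downward for LLC-R, with the 33 tiles that hold a histone TSS in colour and the others in grey, and the lowest panel plots the percent of unique read starts. Coloured bars of H3K27me3 in LLC-NR are short in the first and the third block from the left and as tall as their neighbours in the second and in the single tile at the right end, and white gaps in the peaks lie over gaps in unique starts.

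Other genes of the cluster gave the local background. Promoters of the 32 Vmn1r genes, 28 of which had under 90% unique read starts, held a mean of 2.53 H3K4me3 and 3.66 H3K27me3 peaks in LLC-NR. The remaining 16 neighbours, among them V1rh19, a vomeronasal receptor gene under an older symbol, held 4.5 and 5.56. Abt1, a general transcription coactivator gene, held 7 H3K4me3 and 4 H3K27me3 peaks in LLC-NR, and Hfe, which regulates iron uptake and lies inside the third block, held 6 and 6. The histone genes on either side of Hfe thus held fewer H3K27me3 peaks in LLC-NR, with 3 at Hist1h4c and 3 at Hist1h1c. In LLC-R, Hfe, Hist1h4c and Hist1h1c each held 5. Unique read starts were 100% at Hfe, against 84.4% at Hist1h4c and 84.3% at Hist1h1c.

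Genes of the pathway outside the clusters held more H3K27me3 peaks on average than the 67 histone genes, but 32 of these 38 genes had at least 90% unique starts. The 6 histone promoters with as many held 2.83 in LLC-NR, below all 4 lists, whereas their 5.0 in LLC-R lies within the range of the lists. The 10 replication-independent variant genes found, which supply histones outside S phase, averaged 4.7 ± 2.36 H3K27me3 peaks in LLC-NR, against 5.6 ± 1.17 in LLC-R. Their H3K4me3 was 5.2 ± 0.789 and 5.8 ± 0.919. H2afv, an H2A.Z gene, held 1 and 5 H3K27me3 peaks, and H3f3a, an H3.3 gene, held 7 and 4. The 16 genes for transcription and 3' end processing of histone mRNA held 3.94 ± 1.53 and 5.19 ± 1.17 H3K27me3 peaks and 5.75 ± 1.48 and 6.06 ± 1.34 H3K4me3 peaks. Npat held 5 and 6 H3K4me3 peaks with 3 H3K27me3 peaks in both lines, and Slbp held 6 and 5 with 3 and 5. The 8 chaperone genes held 3.88 ± 1.81 and 4.62 ± 1.06 H3K27me3 peaks, and the 4 genes of cyclin E, its kinase and E2F1 held 4.75 ± 0.5 and 5.25 ± 0.5. The mean of H3K4me3 was higher in LLC-R in the variant and processing lists and lower in the histone genes, with 4.84 and 3.97, and the difference was within 1 SD across promoters in each.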

How the data were processed

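MNase ChIP-seq of 4 histone marks was measured in 8 libraries, 1 per line and mark. The authors aligned reads to mm9 with Bowtie 0.12.7, allowed up to 2 mismatches, kept uniquely mapped reads and called peaks per library with GeneTrack. The deposited files give other values than counts: start and end positions of peaks, with no height, so the summed occupancy that had been considered was not used. Peak midpoints were counted in promoters, gene bodies and 5-kb tiles, with gene models of GENCODE vM1 on NCBIM37.

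The members and the gene lists were chosen with earlier results of these data known. The cluster on chromosome 13 was limited to gaps of at most 2 Mb, which leaves out Hist1h2al, and its blocks are parted by over 150 kb. Genes named are the H1 and testis genes, the members outside chromosome 13, those with the largest differences, the lowest unique share or extreme levels, and genes of the lists, in which H1f0 was not found. The genes of the second block, Hist1h3b, Hist1h3f, Hist1h4c, Hist1h4j, Hfe, Gm17658, Abt1 and the list genes given singly were chosen after their values were seen.

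A read start was unique when its 50 bases matched no other place with up to 2 mismatches. In all promoters a sample of starts at even spacing was tried, and in histone promoters every start. Read totals for 1 alternative scaling are those the study gives. Read length is not given in the sources used here, so 36 bases were also tried. Intervals are exact 95% Poisson or binomial intervals and cover counting error only. Counting was tested on simulated data. Python 3.11.15, NumPy 2.4.6, pandas 2.3.3, SciPy 1.17.1, numba 0.67.0 and Matplotlib 3.10.9 were used.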

Additional observations from a re-analysis of the deposited data

How the results depend on the processing

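No paired analysis was possible because each line and mark has 1 library. Neither tumors nor libraries are replicated, read depth differs between the lines, and numbers of peaks saturate, which limits all differences between LLC-NR and LLC-R. Of the values recomputed under alternatives, 156 stayed within their counting interval or 1.5 times the count, and 59 moved. The other 13 changed sign from a main value whose interval had a single sign. Where the interval held both signs, a change of sign is counted among the 156 or the 59. The causes were not tested. Alternatives with 40 to 90% or 50 to 90% unique starts, with the window up to the TSS, with the same LLC-NR number, without the 3 testis genes and with a peak in any library were chosen after seeing the data.

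For the log2 of the histone promoter mean over all promoters, the histone promoters with at least 90% unique starts gave 0.33 in LLC-NR and 0.26 in LLC-R for H3K4me3, 0.24 and 0.35 for H3K9ac, -0.68 and -0.12 for H3K27me3, and 0.20 and 0.059 for H3K36me3. With 40 to 90% unique starts in both sets, H3K4me3 gave 0.38 and 0.16 and H3K9ac 0.012 and -0.010. Against CpG-rich promoters H3K4me3 gave -0.32 and -0.50. The window of 0.5 kb on either side gave -0.37 for H3K9ac in LLC-R, -1.40 for H3K27me3 in LLC-NR and -0.72 for H3K36me3 in LLC-R, and the window up to the TSS gave -0.43 for H3K27me3 and -0.30 for H3K36me3 in LLC-R.

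For the log2 of LLC-R over LLC-NR, scaling by uniquely mapped reads gave 0.63 for H3K9ac, -0.36 for H3K27me3 and 0.033 for H3K36me3. Promoters with the same LLC-NR number gave -0.10 for H3K27me3 and -0.026 for H3K36me3, and the 6 most unique promoters gave -0.14 for H3K36me3. With any overlap of a peak, 4 promoters had more H3K9ac and 1 had fewer H3K36me3 peaks in LLC-R, and with 1 kb on either side 1 had fewer H3K36me3 peaks.

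In gene bodies, 0.5 to 3 kb downstream gave 0.054 for H3K4me3 in LLC-NR, 0.019 and -0.042 for H3K9ac, -0.54 and -0.28 for H3K27me3, and -0.34 and -0.18 for H3K36me3 in LLC-NR and LLC-R. Against bodies under 2 kb the values were 0.69 and 0.41 for H3K4me3, 0.039 and -0.041 for H3K9ac, -0.76 and -0.80 for H3K27me3, and -1.17 and -0.57 for H3K36me3.

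Tiles with at least 80% unique starts gave log2 values of 0.32 and 0.18 for H3K4me3, 0.075 and 0.080 for H3K9ac, -0.78 and -0.34 for H3K27me3, and -0.36 and -0.14 for H3K36me3. With 50 to 90% they were 0.38 for H3K4me3 in LLC-R, 0.26 and 0.24 for H3K9ac, -0.65 and -0.28 for H3K27me3, and -0.34 and -0.15 for H3K36me3, and 10-kb tiles gave -0.30 for H3K27me3 in LLC-NR.

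Shares of positions within 10 bp were 26% and 31.0% for H3K4me3 seen from LLC-NR and LLC-R, 37.2% and 42.6% for H3K9ac, 22.7% for H3K27me3 from LLC-NR, and 15.9% and 7.29% for H3K36me3. Within 40 bp they were 43.0% and 50.9% for H3K4me3, 54.3% and 62.1% for H3K9ac, and 46.6% and 19.8% for H3K36me3.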

Other observations

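The annotated start of Hist1h2be lies 35168 bp from its start codon, and that of Hist2h3c1 lies 1197 bp away. In a window of the same size set at the start codon, Hist1h2be held 6 H3K4me3 peaks in LLC-NR, against 8 at the annotated start, and 5 in LLC-R, against 7. Its H3K27me3 was 2 and 3 at the start codon, against 1 and 5. The window at the start codon of Hist2h3c1 held 0 and 1 H3K4me3 peaks, against 5 and 3 at the annotated start.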
